A study of Mus musculus with 15 samples.

Results

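The genes of cholesterol and fatty acid synthesis, with their sterol sensors and the sterol efflux genes, were measured in OT-I CD8+ T cells that were naive, primed with antigen (Ag) or primed with antigen and costimulation (Ag+Costim). The set held 35 genes chosen by pathway, 32 of synthesis and its control and 3 of efflux, out of 55536 annotated genes in the table. All 35 passed the filter on low counts, which left 17366 genes for testing. RNA from 15 libraries, 5 per group, was sequenced with 50-base single reads from a kit for low RNA input.

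OT-I Tg mice on C57BL/6J carry a transgenic receptor for the ovalbumin peptide SIINFEKL. The methods describe the donors as Rag1-/- or Rag2-/-, with no statement of which library came from which line, so all groups share the transgene and a recombinase deficiency. Mice were of both sexes, and their age is given in one place as 6 to 12 weeks and in another as 1.5 to 8 months. Naive cells were purified from OT-I mice and were never transferred. For the other groups, OT-I cells were placed into wild-type C57BL/6J recipients, which received the peptide with rat IgG (Ag) or the peptide with agonist antibodies to OX40 (CD134) and 41BB (CD137) (Ag+Costim). Spleen and lymph nodes were taken after 4 days by the labels and 3.5 days by the methods, and CD8+ cells with the donor marker and the receptor chains Vα2 and Vβ5 were sorted. Recipients kept their own B cells, T cells and myeloid cells. The libraries were bulk RNA, so fewer cells of a type and less RNA per cell cannot be told apart.

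Cholesterol is built from acetyl-CoA through the mevalonate pathway to squalene, which is closed into a ring and trimmed by a series of enzymes. The transcription factors SREBP-1 and SREBP-2, made by Srebf1 and Srebf2, are held in the endoplasmic reticulum by SCAP and the INSIG proteins while sterol is plentiful, and when it is scarce they are cleaved and switch on the genes of sterol and fatty acid synthesis. In the opposite branch, oxysterols bind the liver X receptors (LXR), which switch on the exporters ABCA1 and ABCG1. T cells that divide need lipid for new membrane, and the balance between the SREBP and LXR branches is known to shift when they are activated.

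Total counts per library ranged from 4865952 in Ag 3 to 25280667 in Naive 3, and Ag 3 also had the lowest share of its sequenced reads counted, 16.9%. The summed level of 5 CD8 T cell markers was 3217 to 6527 CPM (counts scaled to equal library totals) in every library. In Ag+Costim vs Naive, edgeR called 3 of these 5 lower (Cd8a, Cd8b1 and Cd3g), 4 of 10 tested myeloid markers higher and 2 lower, and both NK cell markers lower; their part in the results was not tested. Several libraries stood apart from their group. The summed CPM of 12 markers of cycling cells was 433 to 2051 in Naive 1 to 4 but 5165 in Naive 5, and Naive 5 also had 433 CPM of the neutrophil gene S100a8, against 1.02 to 38.4 in the other Naive libraries. In Ag, the cycling sum was 1022 in Ag 1 and 1009 in Ag 4 against 5001 to 7015 in Ag 2, Ag 3 and Ag 5, and in Ag+Costim it was 6450 to 8133. Ag 2 and Ag 5 were made from recorded input amounts of 1.4 and 1.8, against 7 to 10 for the rest (no unit was given). All Ag libraries and Ag+Costim 1 to 3 shared a sequencing lane, and Ag+Costim 4 and 5 shared another with all Naive libraries, so lane and group cannot be told apart for Ag vs Naive and overlap in large part for Ag+Costim vs Naive.

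Binding of SREBP or LXR to member promoters was not measured. As examples of these promoters, the 250 bases before the start site are printed for 2 mevalonate enzymes, a sterol enzyme and a sterol exporter. Levels of these genes carry the results below. The printed sequences are those of RefSeq on GRCm38.p6, 5′ to 3′ on the strand of the gene. Start sites are those of RefSeq, while gene positions in the results below are those of GENCODE M21, another annotation. The Idi1 and Cyp51 windows therefore reach into these genes as placed below. Capitals mark a looser form of the sterol regulatory element (TCACNCCAC), the NF-Y box (CCAAT), the Sp1 box (GGGCGG) and the E-box (CACGTG), each on either strand.
Hmgcs1, chr13:119690101-119690350, plus strand: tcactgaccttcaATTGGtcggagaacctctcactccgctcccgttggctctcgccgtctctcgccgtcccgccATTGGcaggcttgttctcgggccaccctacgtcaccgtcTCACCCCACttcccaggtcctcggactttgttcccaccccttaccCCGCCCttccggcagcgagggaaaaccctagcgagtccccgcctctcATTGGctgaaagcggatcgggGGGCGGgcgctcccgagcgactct
Idi1, chr13:8885356-8885605, plus strand: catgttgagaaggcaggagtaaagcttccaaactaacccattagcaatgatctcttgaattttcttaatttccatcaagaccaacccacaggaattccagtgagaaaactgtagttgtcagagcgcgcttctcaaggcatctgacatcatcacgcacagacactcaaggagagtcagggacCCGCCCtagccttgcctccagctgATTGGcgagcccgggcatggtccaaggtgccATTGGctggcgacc
Cyp51, chr5:4104698-4104947, minus strand: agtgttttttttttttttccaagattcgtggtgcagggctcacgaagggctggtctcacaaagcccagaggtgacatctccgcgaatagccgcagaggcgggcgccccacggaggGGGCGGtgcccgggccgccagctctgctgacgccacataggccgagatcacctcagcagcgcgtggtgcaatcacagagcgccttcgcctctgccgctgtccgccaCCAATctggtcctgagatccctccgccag
Abca1, chr4:53159896-53160145, minus strand: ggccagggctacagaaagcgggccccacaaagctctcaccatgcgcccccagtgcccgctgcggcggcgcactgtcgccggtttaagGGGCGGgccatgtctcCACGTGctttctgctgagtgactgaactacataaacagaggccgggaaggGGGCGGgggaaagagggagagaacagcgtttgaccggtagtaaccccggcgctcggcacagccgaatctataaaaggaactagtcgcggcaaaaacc

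Hmgcs1 held 3 NF-Y boxes, 2 Sp1 boxes and the looser sterol element, which began 137 bases before the start. Of the members, 27 had at least 1 entry in the promoter table, and Hmgcs1 was the only one of them with the looser element in the window of 250 bases before to 50 after the start, which 1.24% of all 32851 promoters held. These 27 genes had 35 promoter entries, of which 21 held the NF-Y box (60%, against 37.4% of all promoters), 26 the Sp1 box (74.3%, against 35.7%) and 7 the E-box (20%, against 7.15%). The classical sterol regulatory element and the LXR element of the DR4 kind were each searched in a single fixed spelling. No member promoter held an exact match, against 0.0913% and 0.0152% of all promoters. Elements that differ from that spelling in any fixed letter were not searched or marked, so these promoters may hold such variants. Fdps, Fdft1, Sqle, Scd1, Scd2, Stard4, Abcg1 and Fads1 had no entry. A match is a description of the sequence, and the absence of one says nothing of binding.

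Of the 18 genes of sterol synthesis, 15 had their highest group mean in Ag+Costim, and for 16 of the 18 the SD relative to the mean was smallest there. How many of all tested genes had either trait was not counted, so neither sets the pathway apart. The exporters Abca1 and Abcg1 had their lowest mean in Ag+Costim. In Ag+Costim vs Naive, edgeR's quasi-likelihood test called 17 members higher and 3 lower (FDR, the Benjamini-Hochberg adjusted p, under 0.05), where 21% of all tested genes were called higher and 23.6% lower. With the sequencing lane as a term, 0 of the 35 were called (5.43% of all genes) and 19 were at an unadjusted p under 0.05. The share of all genes at that unadjusted p was not taken with the lane term. With library totals in place of scaled totals, the share of higher calls among all calls in this comparison went from 47.0% to 37.2% and the median of all genes shifted from -0.08 to -0.23 on the log2 scale. CPM did not overlap for 16 members that were higher (22.7% of all genes) and 3 that were lower (22.3%). With library totals alone the 16 became 12, as Hmgcs1, Lss, Msmo1 and Nsdhl then overlapped between Ag+Costim and Naive. In Ag vs Naive, 1 member was called higher and 0 lower (3.05% and 3.66% of all genes). At an unadjusted p under 0.05 there were 9 of the 35 members, against 4980 of the 17366 genes tested. No member was free of overlap in either direction (1.76% of all genes higher, 2.09% lower). In Ag+Costim vs Ag, 0 members were called by edgeR, where 0.0288% of all genes were called higher and 0.00576% lower, and 10 members were at an unadjusted p under 0.05 (26.8% of all genes). The comparisons share libraries and are not independent of each other.

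The Ag+Costim vs Ag result moved with the tool and with single libraries. DESeq2 called 7 members higher and 2 lower (4.46% and 10.9% of the genes tested by edgeR, and 2.77% and 16.6% of the 28025 genes to which DESeq2 gave an FDR), and limma voom with sample quality weights called 27 higher and 5 lower (31.3% and 33.2%). The edgeR count was 8 without Ag 2 (14.8% of all genes in the same fit), 2 without Ag 3 (0.656%) and 10 without Ag 5 (19.7%). It was 27 without both Ag 2 and Ag 5, the libraries of low input, where 50.5% of all genes were called. Without Ag 3 and Naive 5 it was 8, all higher (5.73% of all genes in either direction). The CPM of every Ag+Costim library was above that of every Ag library for 7 members, Hmgcs1, Dhcr7, Acly, Fasn, Srebf1, Scap and Stard4 (4.23% of all genes), and below for 0 members (2.1%). The median log2 fold change was 0.39 over the 32 synthesis members, -0.94 over the 3 efflux members and -0.10 over all genes.

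**Figure D1:**
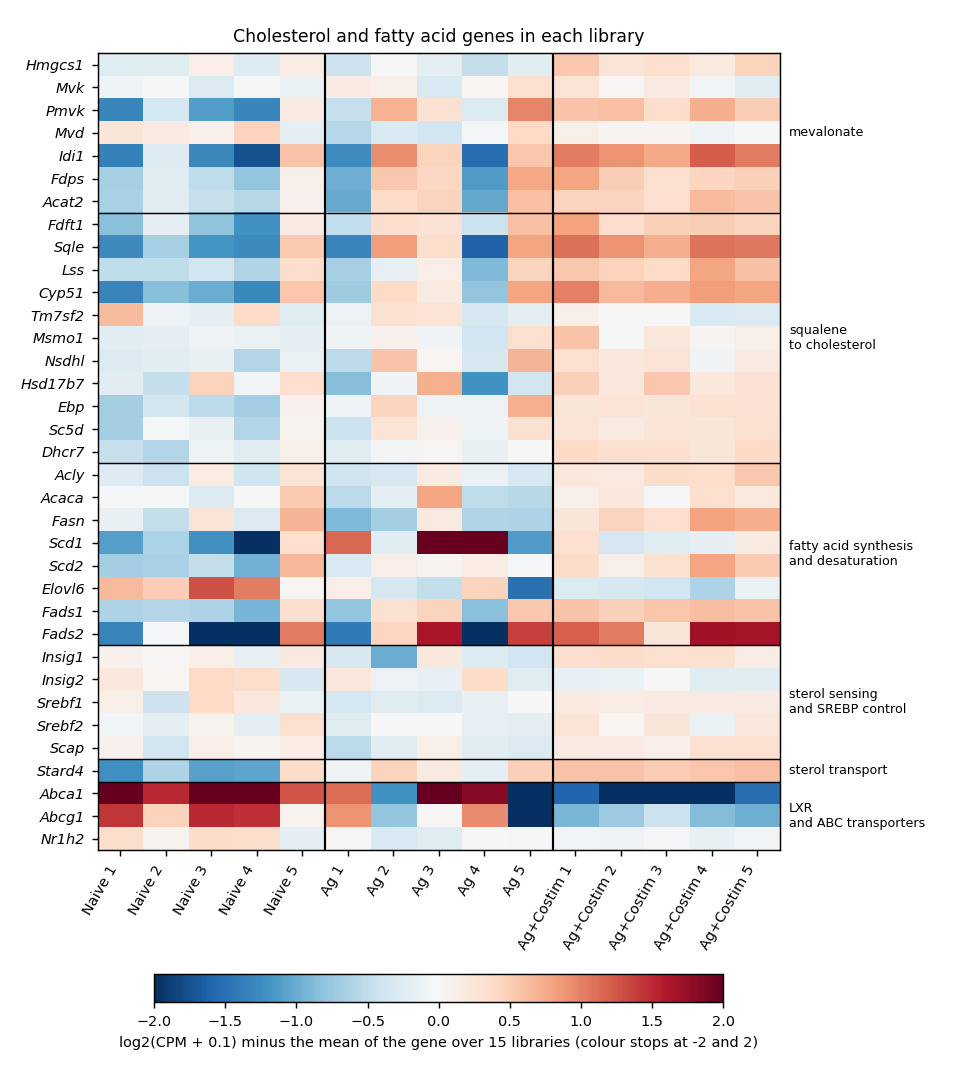
Level of the 35 genes (rows, by role) in the 15 libraries (columns), as log2(CPM + 0.1) minus the mean of the gene over all libraries; red is above that mean and blue below. Idi1, Sqle and Cyp51 are blue in Naive 1 to 4, Ag 1 and Ag 4 and red in Naive 5, Ag 2, Ag 3, Ag 5 and all Ag+Costim libraries, while Abca1 and Abcg1 are blue throughout Ag+Costim.

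In the mevalonate pathway, Hmgcs1 (chromosome 13, 119690379 to 119708260), the synthase that makes HMG-CoA, separated Ag+Costim from both other groups. Its level was 61.6, 61.7, 80.5, 61.3 and 81.1 CPM in Naive 1 to 5, 55.0, 72.5, 63.8, 52.5 and 63.3 in Ag 1 to 5, and 106, 87.0, 92.8, 84.1 and 99.6 in Ag+Costim 1 to 5. Every Ag+Costim library was above every library of the other groups, and Ag overlapped Naive; with library totals alone, Ag+Costim remained above all Ag libraries but overlapped Naive. The log2 fold change was 0.44 (SE 0.12, edgeR FDR 0.0158) in Ag+Costim vs Naive and 0.61 (SE 0.12, edgeR FDR 0.0807) in Ag+Costim vs Ag, and the second passed the threshold with DESeq2 (FDR 0.00044) and without Ag 2 (0.0213) or Ag 5 (0.0205).

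Idi1 (chromosome 13, 8885501 to 8892451), which isomerises the 5-carbon building block, had the widest spread of this step. Naive libraries held 15.9, 34.4, 16.8, 12.2 and 61.1 CPM, Ag libraries 17.0, 78.7, 55.8, 14.2 and 60.2, and Ag+Costim libraries 83.9, 76.3, 69.2, 94.9 and 84.8. Naive 5 and Ag 2, 3 and 5 lay near the Ag+Costim range, and Ag 1 and Ag 4 lay with Naive 1 to 4. The highest Ag library was 5.52 times the lowest, against 1.37 times within Ag+Costim. Idi1 rose by 1.54 on the log2 scale (SE 0.50, edgeR FDR 0.0252) in Ag+Costim vs Naive, a call lost without Naive 1, Naive 3 or Naive 4 (edgeR FDR 0.0606 to 0.0668). Its value in Ag+Costim vs Ag was 0.86 (SE 0.49, edgeR FDR 0.273).

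Of the 7 mevalonate members, 5 were called higher in Ag+Costim vs Naive, against 21% of all tested genes. They were Hmgcs1, Idi1, the kinase Pmvk (1.22), the farnesyl diphosphate synthase Fdps (0.90) and the thiolase Acat2 (0.83). Mvk (0.16) and Mvd (-0.14), the kinase and decarboxylase of mevalonate, were not called. Without 1 library, the Fdps call was lost for any of Naive 1 to 4 or Ag+Costim 1, 2, 3 or 5 (edgeR FDR 0.0521 to 0.0885), and the Acat2 call for any of Naive 1 to 4 or Ag+Costim 1, 2 or 5 (0.0531 to 0.0799). Acat2 has a close paralog, Acat3, so its count is less certain. Pmvk reached 36.1 ± 3.38 CPM (SD, n = 5) in Ag+Costim against 15.6 ± 7.74 in Naive, and its Ag mean, 31.3 ± 13.0, was closer to Ag+Costim. None of the 7 was called in Ag vs Naive, where Pmvk was nearest (1.01, SE 0.32, edgeR FDR 0.068).

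From squalene to cholesterol, 8 of 11 members were called higher in Ag+Costim vs Naive and none lower, against 21% and 23.6% of all tested genes. Sqle (chromosome 15, 59315077 to 59331192), the squalene epoxidase, a rate-limiting enzyme, had 17.5, 26.8, 18.7, 17.6 and 61.2 CPM in Naive, 17.1, 76.6, 54.7, 13.8 and 74.2 in Ag, and 91.6, 79.4, 70.8, 91.2 and 88.8 in Ag+Costim. It rose by 1.57 on the log2 scale (SE 0.47, edgeR FDR 0.0202) against Naive, a call lost without Naive 1, Naive 3 or Naive 4 (edgeR FDR 0.0506 to 0.0563). As with Idi1, the Ag group was split, and the value against Ag was 0.84 (SE 0.47, edgeR FDR 0.264).

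Cyp51 (chromosome 5, 4081145 to 4104746), the lanosterol demethylase, followed the same order, with 23.3, 32.3, 29.2, 23.7 and 85.2 CPM in Naive, 35.5, 76.8, 66.0, 33.7 and 100.5 in Ag, and 117.5, 90.6, 96.0, 103.4 and 100.6 in Ag+Costim. It rose by 1.39 (SE 0.37, edgeR FDR 0.0136) against Naive. The other called members were Fdft1 (1.01), which joins farnesyl units into squalene, the cyclase Lss (0.84), and the later enzymes Ebp (0.68), Dhcr7 (0.57), Sc5d (0.50) and Msmo1 (0.37). The Msmo1 call was lost in 14 of 20 alternatives, among them leaving out any Naive library or Ag+Costim 1, 3 or 5 (edgeR FDR 0.0512 to 0.12). The Sc5d call was lost without Naive 1, Naive 4 or Ag+Costim 5 (0.055 to 0.0703) and that of Lss without Naive 1 or Naive 4 (0.0505 and 0.0515). Nsdhl (0.45, edgeR FDR 0.0812), Hsd17b7 (0.30) and Tm7sf2 (-0.22) were not called.

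Dhcr7 (chromosome 7, 143823145 to 143848410), which makes cholesterol from its last precursor, was the step of this branch that separated Ag+Costim from Ag. It measured 33.9, 30.8, 43.3, 39.3 and 50.2 CPM in Naive, 39.4, 44.9, 47.7, 41.9 and 46.8 in Ag, and 61.4, 58.2, 58.2, 55.0 and 61.4 in Ag+Costim. Unlike Idi1 and Sqle, Ag was compact, and all its libraries lay below Ag+Costim. The log2 fold change against Ag was 0.42 (SE 0.12, edgeR FDR 0.0829), which DESeq2 called (FDR 0.012), and against Naive Dhcr7 rose by 0.57 (SE 0.12, edgeR FDR 0.00595).

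**Figure D2:**
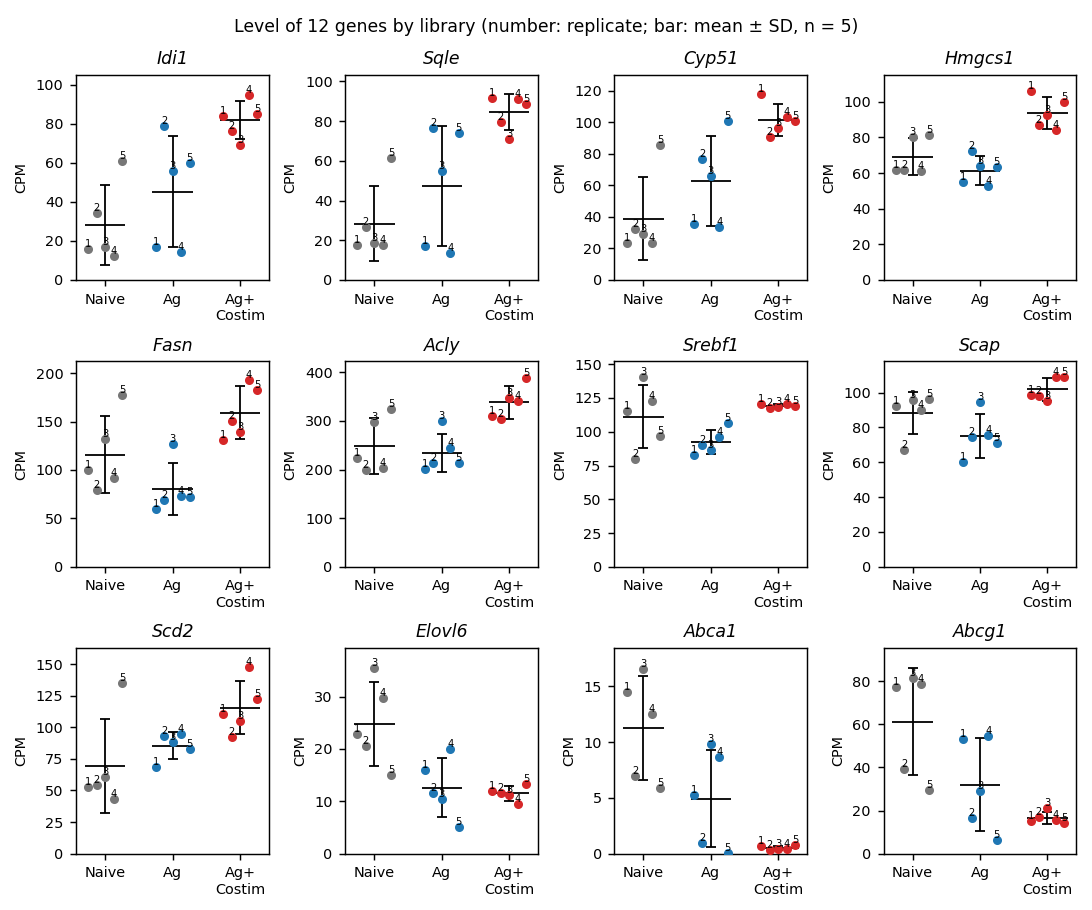
CPM of 12 genes (one panel each, CPM axis from 0) in Naive, Ag and Ag+Costim libraries; points are libraries with their replicate number, and bars are the mean and SD of 5. For Idi1, Sqle and Cyp51 the Ag points split, with replicates 1 and 4 low; for Hmgcs1, Fasn, Acly, Srebf1 and Scap all Ag+Costim points lie above all Ag points; Abca1 is at most 0.764 CPM in Ag+Costim.

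The spread of the sterol genes within Ag and Naive followed the same libraries. Ag 1 and Ag 4 were the lowest Ag libraries for 5 of 7 mevalonate members and 9 of 11 squalene-to-cholesterol members, for 2 of 8 fatty acid members and for none of 5 members of SREBP control, 17 of 32 synthesis members with Stard4 counted. Over all tested genes this held for 30.9%. Naive 5 was the highest Naive library for 24 of 32 synthesis members (35.3% of all genes) and the lowest for all 3 efflux members (33.7%). The summed CPM of the 11 squalene-to-cholesterol genes was 301, 366, 354, 301 and 535 in Naive, 356, 598, 506, 358 and 680 in Ag, and 609 to 700 in Ag+Costim. Libraries with a low cycling-marker sum (Naive 1 to 4, Ag 1 and Ag 4) had 13.8 to 26.8 CPM of Sqle, and those with a sum of 5001 or more had 54.7 to 91.6 CPM. Of the 12 cycling markers, 11 were called higher by edgeR in Ag+Costim vs Naive; their part in the sterol gene levels was not tested. Without Naive 5 the edgeR calls in Ag vs Naive went from 1 to 9 members, 7 higher and 2 lower, where 21.5% of all genes were called. Without Naive 1 or Naive 4 the calls in Ag+Costim vs Naive went from 20 to 10 (21.9% and 21.6% of all genes).

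**Figure D3:**
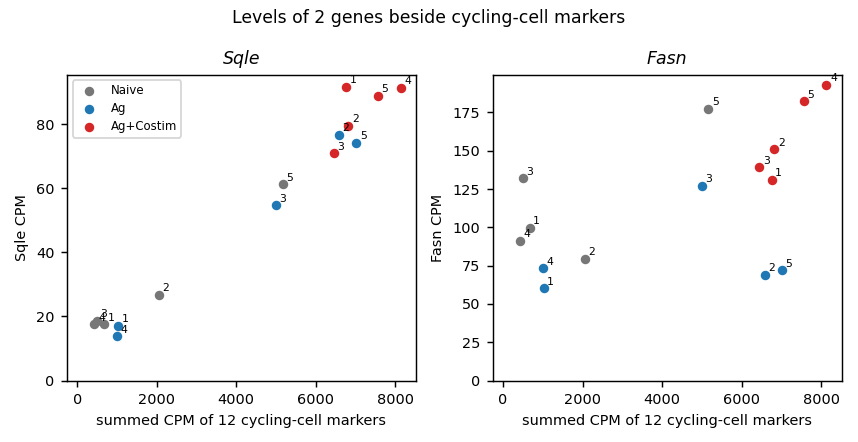
CPM of Sqle and Fasn against the summed CPM of 12 markers of cycling cells in the 15 libraries (numbers are replicates, colours are groups). Sqle is at 13.8 to 26.8 CPM where the cycling sum is 2051 or less and at 54.7 CPM or more where it is 5001 or more; Ag 2 and Ag 5 have high cycling sums but Fasn levels of 68.8 and 72.0 CPM.

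Of the fatty acid genes, Fasn and Acly separated Ag+Costim from Ag. Fasn (chromosome 11, 120805846 to 120824547), the fatty acid synthase, had 99.7, 79.5, 132, 91.2 and 177 CPM in Naive, 60.1, 68.8, 127, 73.2 and 72.0 in Ag, and 131, 151, 139, 193 and 182 in Ag+Costim. All Ag+Costim libraries were above all Ag libraries, narrowly so for Ag 3, and Ag had the lowest mean of the groups. The log2 fold change was 0.99 against Ag (SE 0.24, edgeR FDR 0.0807, or 0.0429 without Ag 3), 0.46 against Naive (SE 0.24, edgeR FDR 0.12) and -0.53 for Ag vs Naive (SE 0.24, edgeR FDR 0.157).

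Acly (chromosome 11, 100476353 to 100528000), which supplies cytosolic acetyl-CoA to both pathways, had the highest level of the set for its length, 64.1 ± 6.36 CPM per kilobase of exon in Ag+Costim. Its libraries held 223, 198, 297, 202 and 324 CPM in Naive, 202, 214, 299, 245 and 214 in Ag, and 310, 305, 346, 341 and 389 in Ag+Costim. All Ag+Costim libraries exceeded all Ag libraries, and the log2 fold change was 0.53 (SE 0.16, edgeR FDR 0.0832). Against Naive, Acly rose by 0.44 (SE 0.16, edgeR FDR 0.0368), although Naive 5 lay inside the Ag+Costim range. That call was lost in 10 of 20 alternatives, among them leaving out Naive 1, 2 or 4 or Ag+Costim 1, 3 or 5 (edgeR FDR 0.0513 to 0.0929).

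The desaturases differed from each other. Scd2 (chromosome 19, 44293674 to 44306864), the stearoyl-CoA desaturase found across most tissues, had 52.9, 54.4, 61.0, 43.5 and 135 CPM in Naive, 68.6, 93.3, 88.4, 94.6 and 82.4 in Ag, and 110, 92.1, 105, 147 and 122 in Ag+Costim. It rose by 0.73 (SE 0.26, edgeR FDR 0.0349) in Ag+Costim vs Naive, with values of 0.43 (SE 0.26, edgeR FDR 0.292) against Ag and 0.30 (edgeR FDR 0.428) for Ag vs Naive. The Scd2 call was lost in 13 of 20 alternatives, among them leaving out any of Naive 1 to 4 or Ag+Costim 1, 3, 4 or 5 (edgeR FDR 0.0505 to 0.0871), while without Naive 5 the value was 1.14. Fads1, the delta-5 desaturase, rose by 0.98 (edgeR FDR 0.0188) in Ag+Costim vs Naive, a call lost without Naive 1 or Naive 4 (0.0511 and 0.0538). Its neighbour Fads2, at most 5.90 CPM in any library, was not called (1.73, SE 0.84, edgeR FDR 0.0998).

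Scd1 (chromosome 19, 44394455 to 44407879), the desaturase of liver and fat, was the member called in Ag vs Naive. It was low in nearly all libraries, with 0.768, 1.10, 0.709, 0.278 and 2.26 CPM in Naive, 4.05, 1.52, 18.5, 7.66 and 0.751 in Ag, and 2.25, 1.38, 1.48, 1.56 and 2.02 in Ag+Costim. It rose by 2.63 on the log2 scale (SE 0.73, edgeR FDR 0.0464) in Ag vs Naive, and the call was lost in 10 of 20 alternatives. These included leaving out Ag 3 (1.77, edgeR FDR 0.0929), Ag 4 (0.0523) or any of Naive 1 to 4 (0.0746 to 0.125), the lane as a term (0.626), no filter on low counts (0.105) and a fit of the 10 libraries compared (0.196). The value was -1.86 (SE 0.71, edgeR FDR 0.122) in Ag+Costim vs Ag and 0.76 (SE 0.71, edgeR FDR 0.377) in Ag+Costim vs Naive. Of 7 tested B cell markers, 4 were called higher in Ag vs Naive, and the summed CPM of all 8 was 572 to 978 in Naive, 589 to 1364 in Ag and 490 to 732 in Ag+Costim, most of it from Ighm. Ag 3 also had the highest sums of 5 erythroid markers (1051 CPM) and 5 adipocyte markers (17.9 CPM). The part of other cells in the Scd1 result was not tested.

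Elovl6 (chromosome 3, 129532355 to 129638495), which lengthens 16-carbon fatty acids, was the member of this group that fell. It decreased by 1.10 on the log2 scale (SE 0.30, edgeR FDR 0.0145) in Ag+Costim vs Naive, from 24.7 ± 7.99 to 11.5 ± 1.41 CPM, and the call was lost without Ag+Costim 4 (edgeR FDR 0.0547). The Ag mean was 12.6 ± 5.63 CPM (-0.97 against Naive, SE 0.30, edgeR FDR 0.0658). Acaca, the acetyl-CoA carboxylase, was not called in any comparison (edgeR FDR 0.464 against Ag, and 0.724 for Ag+Costim vs Naive). In all, 3 of 8 fatty acid members were called higher and 1 lower in Ag+Costim vs Naive, against 21% and 23.6% of all tested genes. With so few members, these counts do not set the group apart.

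None of the 5 genes of SREBP control was called by edgeR in Ag+Costim vs Naive (0 at an unadjusted p under 0.05, 0 by DESeq2, and 2 higher and 1 lower by limma voom). Srebf1 (chromosome 11, 60199089 to 60222581) was at 115, 79.7, 140, 123 and 97.1 CPM in Naive, 82.9, 89.9, 86.7, 96.3 and 106 in Ag, and 121, 117, 119, 121 and 119 in Ag+Costim. The Ag+Costim libraries lay within 1.03 times of each other, inside the Naive range and above all Ag libraries. The log2 fold change against Ag was 0.37 (SE 0.13, edgeR FDR 0.107), and against Naive 0.10 (SE 0.13, edgeR FDR 0.523).

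Srebf2 (chromosome 15, 82147181 to 82205379), the factor that favours sterol genes, had 143, 130, 157, 130 and 185 CPM in Naive, 125, 148, 150, 133 and 131 in Ag, and 179, 153, 176, 136 and 174 in Ag+Costim. The groups overlapped in every comparison, and the log2 fold change against Ag was 0.26 (SE 0.12, edgeR FDR 0.188). Scap (chromosome 9, 110333288 to 110384950), which escorts both factors to the Golgi, measured 92.6, 66.9, 95.7, 90.1 and 96.5 CPM in Naive, 60.01, 74.5, 94.7, 75.4 and 70.9 in Ag, and 98.4, 98.0, 95.2, 109 and 109 in Ag+Costim. It separated Ag+Costim from Ag, with Ag 3 just below the lowest Ag+Costim library, and the log2 fold change was 0.44 (SE 0.13, edgeR FDR 0.0826).

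Insig1 (chromosome 5, 28071363 to 28078662), a retention protein that is itself a target of SREBP, had 17.4, 16.6, 17.98, 14.6 and 18.7 CPM in Naive, 13.1, 8.199, 18.9, 13.7 and 12.5 in Ag, and 20.9, 21.3, 20.5, 20.6 and 18.3 in Ag+Costim. Ag+Costim 5 lay below Ag 3, and the other Ag+Costim libraries lay above every Ag and Naive library. The log2 fold change was 0.62 against Ag (SE 0.17, edgeR FDR 0.0807, called without Ag 2, Ag 3 or Ag 5) and 0.25 against Naive (SE 0.17, edgeR FDR 0.227). Its relative Insig2 had values of -0.19 and -0.31 in the same comparisons, neither of them called (edgeR FDR 0.446 and 0.106).

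Srebf1 has alternative starts, so the share of its annotated transcripts was taken from the transcript table. Srebf1-201, the coding transcript that spans most of the gene, held 97.3% ± 3.31 (SD, n = 5) of the gene's counts in Naive and 94.9% ± 3.71 in Ag+Costim, with 86.9% ± 13.0 in Ag. Its share was 70.1% in Ag 3 and 75.6% in Ag 1, and 95.5% to 97.4% in the other Ag libraries. Srebf1-207, a coding transcript that starts further in, held 26.9% in Ag 3 and 21.2% in Ag 1, at most 3.83% in the other Ag libraries, at most 7.53% in Naive and 1.42% to 9.73% in Ag+Costim. Ag 3 had the lowest depth of all libraries, and the shares are estimates from single 50-base reads, so the difference in means was not tested.

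Stard4 (chromosome 18, 33199355 to 33213862), a carrier of sterol between membranes, had 12.2, 18.6, 13.4, 13.8 and 36.8 CPM in Naive, 27.2, 39.0, 32.4, 24.9 and 40.0 in Ag, and 42.6, 42.4, 40.9, 42.2 and 43.7 in Ag+Costim. The Ag+Costim libraries formed a narrow band above all others, and Ag lay above Naive 1 to 4. Stard4 rose by 1.16 on the log2 scale (SE 0.26, edgeR FDR 0.00737) in Ag+Costim vs Naive. The value was 0.79 in Ag vs Naive (SE 0.26, edgeR FDR 0.0798) and 0.37 against Ag (SE 0.26, edgeR FDR 0.367).

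The sterol exporters moved the other way. Abca1 (chromosome 4, 53030787 to 53159895), which loads cholesterol onto lipid-poor particles, was at 14.5, 6.94, 16.6, 12.5 and 5.85 CPM in Naive, 5.25, 0.965, 9.80, 8.66 and 0.0626 in Ag, and 0.729, 0.325, 0.422, 0.389 and 0.764 in Ag+Costim. All Ag+Costim libraries were below all Naive libraries, while Ag 3 and Ag 4 lay in the Naive range, Ag 1 just under it, Ag 2 just above the Ag+Costim range and Ag 5 below it. Abca1 fell by 4.39 on the log2 scale (SE 0.85, edgeR FDR 0.00397) in Ag+Costim vs Naive. Its low levels rest on few counts, 11, 4, 6, 6 and 11 in Ag+Costim 1 to 5 and 1 in Ag 5. The size of its fold changes is therefore imprecise. In Ag+Costim vs Ag the value was -3.17 (SE 0.83, edgeR FDR 0.0807), which DESeq2 called (FDR 0.00304) and edgeR called without Ag 5 (0.0163) or Ag 2 (0.03). For Ag vs Naive it was -1.23 (SE 0.72, edgeR FDR 0.262).

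Abcg1 (chromosome 17, 31057675 to 31117988), the exporter to mature lipoprotein particles, had 77.1, 39.2, 81.4, 78.7 and 29.7 CPM in Naive, 53.3, 16.4, 29.0, 54.8 and 6.51 in Ag, and 15.04, 17.1, 21.1, 15.6 and 14.4 in Ag+Costim. It fell by 1.88 (SE 0.47, edgeR FDR 0.0104) in Ag+Costim vs Naive, and Naive 5 and Naive 2 were the nearest Naive libraries. The values were -0.94 against Ag (SE 0.46, edgeR FDR 0.205) and -0.94 for Ag vs Naive (SE 0.46, edgeR FDR 0.188). With the lane as a term, the log2 fold changes against Naive were -4.27 for Abca1 and -2.03 for Abcg1, and neither was called (edgeR FDR 0.0584 and 0.0667). With the libraries of lane 3 alone, which hold 2 of Ag+Costim, they were -4.29 and -2.04 (edgeR FDR 0.0198 and 0.0281). Nr1h2 (chromosome 7, 44549616 to 44553951), the LXR of most cells, was at 111, 91.2, 112, 110 and 75.9 CPM in Naive, 88.3, 70.4, 73.6, 87.6 and 84.3 in Ag, and 83.8, 80.9, 84.1, 78.5 and 83.3 in Ag+Costim. It was not called (-0.29, SE 0.12, edgeR FDR 0.0559 for Ag+Costim vs Naive), and its Ag+Costim vs Ag value was 0.02 (SE 0.12), or -0.06 with library totals alone.

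**Figure D4:**
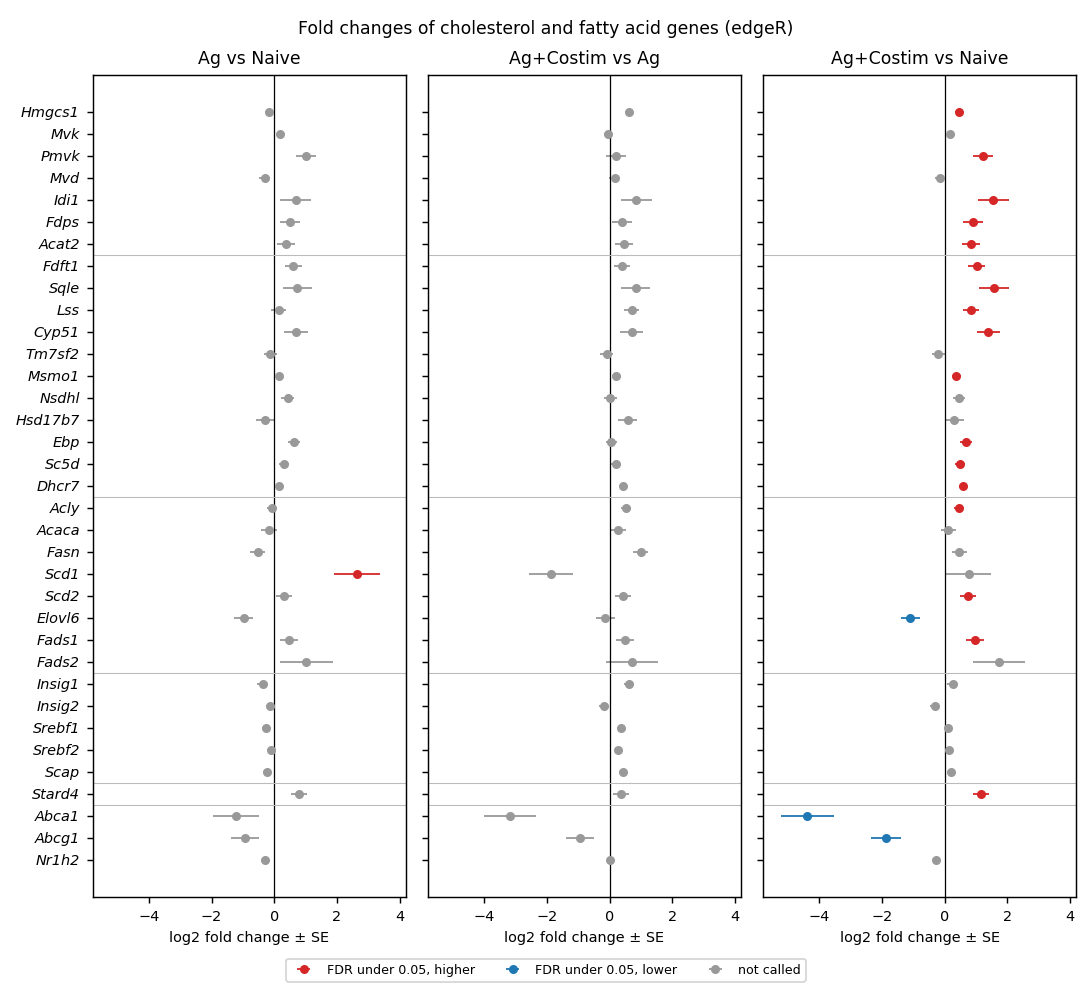
Log2 fold change ± SE of the 35 genes (rows, by role) from edgeR in Ag vs Naive, Ag+Costim vs Ag and Ag+Costim vs Naive; coloured points have an FDR under 0.05. Only Scd1 is called in Ag vs Naive and no gene in Ag+Costim vs Ag, while 17 are higher and 3 lower in Ag+Costim vs Naive.

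Among other genes of these pathways, 54 were listed, 53 were found and 45 were tested. In Ag+Costim vs Naive, 13 were called higher and 9 lower (28.9% and 20%, against 21% and 23.6% of all genes). Those with the largest changes were Mylip (-3.04, edgeR FDR 0.00173), Elovl7 (-2.34), Soat2 (1.92), Nr1h3 (1.74) and Acss2 (-1.44). Mylip, an LXR target that marks lipoprotein receptors for breakdown, went from 77.7 ± 28.5 CPM in Naive to 24.0 ± 14.9 in Ag and 9.41 ± 1.73 in Ag+Costim. Acss2, which makes acetyl-CoA from acetate, went from 98.7 ± 31.5 to 45.4 ± 7.13 and 36.3 ± 8.31 CPM, so that in Ag+Costim vs Naive it was opposite in direction to Acly. Soat2 esterifies cholesterol and Nr1h3 is the second LXR, and both were below 16 CPM in all libraries. Of the 10 tested myeloid markers, 4 were also called higher in Ag+Costim vs Naive (edgeR FDR 0.0112 to 0.0195). They were Cd68 (1.71) and C1qa, C1qb and C1qc (1.98 or more each, on the log2 scale). S100a8 (-4.31) and S100a9 (-4.74) were called lower (edgeR FDR 0.0345 and 0.0317), and Lyz2 (0.15), Csf1r, Itgam and Adgre1 were not called. The part of myeloid cells in the Nr1h3 result was not tested.

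In Ag vs Naive, 1 of the 45 was called higher, the fatty acid reductase Tecr (0.46, edgeR FDR 0.0244), and 5 were lower: Elovl7 (-1.77), Mylip (-1.69), Acss2 (-1.12), the SREBP-cleaving protease Mbtps2 (-0.70) and the prenyl synthase Ggps1 (-0.61). These are 2.22% and 11.1% of the 45, against 3.05% and 3.66% of all genes. Mbtps2 had 16.5 to 25.5 CPM in Naive, 9.56 to 15.7 in Ag and 20.7 to 27.4 in Ag+Costim, so that Ag lay below both other groups. In Ag+Costim vs Ag, 0 of the 45 were called by edgeR, with 8 at an unadjusted p under 0.05 (26.8% of all genes). DESeq2 called 5 (15.4% of the genes tested by edgeR) and limma voom 27 (64.5% of all genes).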

How the data were processed

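RNA-seq of 15 bulk libraries, 5 per group as titled, was used. Per the labels, reads were processed with HISAT2 2.1.0, SAMtools 1.9 and StringTie 2.1.0 on mm10. The authors deposited tables of expected counts (StringTie estimates given as whole numbers, not normalised) per gene and per transcript. The annotation release was not given in the sources used here. Of 81881 gene entries, 55536 matched GENCODE M21 (GRCm38) by identifier and version. Left out were 26248 entries named by a number alone (0.0818% of counts) and 97 with 0 counts. A quality table of the sequencing core gives, per the file headers, the count of sequenced reads, the lane and an input amount, used as a score because no unit is given. The deposited FPKM table was not used.

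Counts were tested in edgeR 4.0.16 (R 4.3.3) with filterByExpr, TMM scaling and a robust quasi-likelihood fit of all 15 libraries with 1 coefficient per group. The biological coefficient of variation common to all genes was 0.431. Two-sided tests were used, with Benjamini-Hochberg adjustment over 17366 genes. CPM values use TMM-scaled library totals, and SE is that of the log2 fold change. DESeq2 1.42.0 and limma 3.58.1 (voom with sample quality weights) were alternatives, beside other scalings, no filter, lane and replicate terms and libraries left out. Of these, 3 were chosen after seeing the data. The script was tested on simulated data. The study describes the libraries of a group as individual biological replicates and, in one comparison of Ag with Ag+Costim, as 5 mice per group; the labels name no animals. Counts carry no molecular identifiers, and depth (4865952 to 25280667 counts) limits genes at low CPM. The members, the gene lists and the rule for which genes get full values were chosen with earlier results of these data known. Full values are given for members called in Ag+Costim vs Ag or Ag vs Naive, members whose CPM did not overlap between Ag+Costim and Ag, the 3 efflux members, Srebf1, Srebf2, Insig1, Scd1 and Scd2, and of other pathway genes the 5 with the largest called change per comparison. Idi1, Sqle, Cyp51 and Elovl6 were added after their values were seen, as was Tecr, which completes a short list. Promoter sequences are those of RefSeq on GRCm38.p6.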

Additional observations from a re-analysis of the deposited data

Results flagged for a closer look

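In 12 of 105 combinations of a member and a group, the highest or lowest of the 5 libraries lay further from the others than Dixon's 95% limit of 0.71 of the range. Chance alone flags about 1 in 20, which is 5.25 of 105, and members of a pathway are not independent. The share of all genes that the same rule flags was not taken, so the 12 do not mark a trait of these members. Over all tested genes, Naive 5 was the highest Naive library for 35.3% and the lowest for 33.7%. Naive 5 was the high library for 7 of them, with 61.2 CPM of Sqle, 36.3 of Lss, 85.2 of Cyp51, 19.4 of Acaca, 135 of Scd2, 30.5 of Fads1 and 36.8 of Stard4. The next highest Naive libraries held 26.8 CPM of Sqle, 21.6 of Lss and 32.3 of Cyp51. Naive 5 also had the highest sums of cycling and myeloid markers of its group, 5165 and 1027 CPM; their part in these levels was not tested.

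Ag 3 was the high Ag library for Acaca (23.5 CPM) and Fasn (127 CPM), and it had the lowest depth of all libraries. Ag+Costim 1 was high for Fdft1 (62.0 CPM, next 49.8). Ag+Costim 5 was low for Insig1 (18.3 CPM, next 20.5), and Naive 2 was low for Scap (66.9 CPM, next 90.1).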

How the results depend on the processing

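With DESeq2, edgeR calls of 0 members in Ag+Costim vs Ag, 1 in Ag vs Naive and 20 in Ag+Costim vs Naive became 9, 5 and 19, and with limma voom 32, 11 and 31. For the 45 other pathway genes, 0, 6 and 22 calls became 5, 14 and 22 with DESeq2 and 27, 19 and 35 with limma voom. In Ag+Costim vs Ag, DESeq2 called 15.4% and limma voom 64.5% of the genes tested by edgeR. In Ag vs Naive, DESeq2 called 1094 of these 17366 genes higher and 1531 lower, and limma voom 1880 and 2159. In Ag+Costim vs Naive the numbers were 3793 and 4608 with DESeq2 and 6419 and 7108 with limma voom. For the counts below, the share of all genes is given above, beside them, or was not taken. Where it was not taken, a count does not set the members apart from other genes. Without 1 library at a time, members called ranged from 0 to 10, from 0 to 9 and from 10 to 23 in the same order. Without Ag 3 and Naive 5 they were 8, 8 and 26, and without Ag 2 and Ag 5 they were 27 in Ag+Costim vs Ag. In Ag vs Naive, members called were 2 with library totals alone, where 495 of all genes were called higher and 642 lower. They were 0 without the filter (9 at an unadjusted p under 0.05) and 0 with only the 10 libraries compared (6). They were also 0 without any single one of Naive 1 to 4 (6 to 11). With the lane as a term, edgeR called 0 members in each comparison (9, 0 and 19 at an unadjusted p under 0.05), and 0, 0 and 4 of the other genes (4, 5 and 20); the 11 members called in lane 3 libraries alone rest on 2 Ag+Costim libraries. Nr1h2 in Ag+Costim vs Ag, 0.02 in the report, was -0.06 with limma voom, -0.06 with library totals alone and from -0.01 (without Ag 3) to 0.13 without 1 library. Members with no overlap between groups were 9 and 15 with library totals alone, against 7 and 19, in Ag+Costim vs Ag and Ag+Costim vs Naive. Over 35 values of single members, 714 alternatives kept the direction and side of the threshold 552 times, lost a call 102 times, gained one 57 times and reversed 3 times. The causes were not tested.

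The replicate numbers were not shown to pair the libraries. Recorded sex went with the number in every group, female for 1, 2 and 5 and male for 3 and 4. In deviations from group means, same-numbered libraries correlated at -0.251 to 0.166 in Ag+Costim vs Ag and -0.156 to 0.122 in Ag+Costim vs Naive. In Ag vs Naive the values for 1 to 5 were 0.421, -0.118, -0.324, 0.47 and 0.405. The spread within Ag and Naive enters these values, so they cannot settle whether libraries were paired. With the replicate block, members called were 0, 3 and 20. The share of all genes called in that fit was not taken, so these counts do not set the members apart.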
